A study of Mus musculus with 6 samples.

Results

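Binding of GATA4 and GATA6 was examined at the 8 genes of the DNA methylation machinery in mouse extra-embryonic endoderm (XEN) cells: Tet1, Tet2, Tet3, Dnmt1, Dnmt3a, Dnmt3b, Dnmt3l and Uhrf1, out of 21938 protein-coding genes. The genes were chosen by name, and a region was assigned to a gene when it lay in the gene body or within 50 kb of any annotated transcription start site (TSS), an interval called the locus below. The assay was CUT&RUN, which releases and sequences the DNA fragments around a protein through a nuclease tethered to its antibody, with 3 libraries per factor. Each library gave its own list of called regions, and the authors' combined list of a factor keeps the regions found in all 3 of its libraries. Of the 8282 GATA4 combined regions, 12 (0.145%) lay in the 8 loci, as did 8 (0.155%) of the 5170 GATA6 combined regions.

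DNA methylation is the addition of a methyl group to cytosine, in mammals mostly in CG dinucleotides, and in many gene promoters it goes with silencing. DNMT3A and DNMT3B place new methyl groups with the help of the catalytically inactive partner DNMT3L, DNMT1 copies the pattern to the new strand after replication, and UHRF1 recruits DNMT1 to hemimethylated DNA. The TET enzymes oxidise methylcytosine, the first step of active demethylation. GATA4 and GATA6 are zinc finger transcription factors of the primitive endoderm that recognise GATA sequences.

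XEN cells are self-renewing cells derived from the primitive endoderm, and the study compared how readily they and embryonic stem cells convert into each other. All 6 libraries are labelled as the line 3F2, which was derived from mice with Oct4-GFP, R26 M2rtTA and Col1a1 TetO-OKSmCh alleles, a reporter and an inducible reprogramming cassette that both factors' libraries share. The labels name no induction for these libraries. The study's methods add the line 3F6 and fewer replicates, so each SD over n = 3 rests on the labels. Sequencing to 30000000 reads per library is stated in the labels, what remained of them after filtering is unknown, and the lists held 46646 to 49597 regions for GATA4 and 42446 to 46484 for GATA6. The median maximum signal, the highest fragment pileup in a region, was 4 in each library, so most regions rest on few fragments. No expression was measured in these libraries, so neither the labelled cell type nor the transcription of the 8 genes could be checked here.

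The sequences at the sites on which the results turn are shown first, in mm10. At the site upstream of Dnmt3b and at the site downstream of Uhrf1 the capitals mark GATA motifs, searched as AGATAA or AGATAG and also as TGATAA or TGATAG, on both strands, so the reverse complements are capitalised too. Both are 201 bp on the plus strand, centred on the maximum signal of the GATA4 combined region, and show the distal sites with several motifs.
Dnmt3b upstream, chr2:153625848-153626048: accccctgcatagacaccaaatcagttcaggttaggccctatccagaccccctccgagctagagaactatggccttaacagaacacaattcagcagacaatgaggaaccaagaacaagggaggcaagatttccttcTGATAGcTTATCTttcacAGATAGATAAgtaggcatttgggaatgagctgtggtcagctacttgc
Uhrf1 downstream, chr17:56363298-56363498: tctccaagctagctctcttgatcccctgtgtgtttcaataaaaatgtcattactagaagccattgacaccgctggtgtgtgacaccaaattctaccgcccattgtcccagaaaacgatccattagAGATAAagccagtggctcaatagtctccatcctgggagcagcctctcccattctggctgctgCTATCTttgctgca
The window upstream of Dnmt3b holds 4 motifs and 1 CG, with 2 motifs overlapping each other, and the window downstream of Uhrf1 holds 2 motifs and 3 CG.

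The other 3 sites hold no such motif, and there the capitals mark CG dinucleotides, the substrate of the enzymes themselves. The site upstream of Dnmt3a is 201 bp on the plus strand, centred on the maximum signal of the GATA4 combined region. The 2 promoters are the 250 bases before a start in the RefSeq promoter table (GRCm38.p6), on the minus strand for Dnmt1 and the plus strand for Uhrf1. They are shown because a GATA4 combined region overlapped them. At Dnmt1 the same region overlapped another RefSeq promoter, chr9:20952574-20952873, with 33 CG in its 300 bases against 12 in those of the promoter shown, and it is not printed because it runs into transcribed sequence.
Dnmt3a upstream, chr12:3791841-3792041: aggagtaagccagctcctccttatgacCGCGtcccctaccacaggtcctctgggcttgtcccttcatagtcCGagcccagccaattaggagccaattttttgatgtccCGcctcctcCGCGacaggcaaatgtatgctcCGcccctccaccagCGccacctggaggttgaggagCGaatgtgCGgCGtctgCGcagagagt
Dnmt1 promoter, chr9:20952980-20953229: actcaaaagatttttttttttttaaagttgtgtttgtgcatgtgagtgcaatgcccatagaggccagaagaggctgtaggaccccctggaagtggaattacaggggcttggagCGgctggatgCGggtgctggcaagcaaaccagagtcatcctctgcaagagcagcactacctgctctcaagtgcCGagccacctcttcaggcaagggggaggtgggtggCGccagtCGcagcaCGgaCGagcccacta
Uhrf1 promoter, chr17:56304063-56304312: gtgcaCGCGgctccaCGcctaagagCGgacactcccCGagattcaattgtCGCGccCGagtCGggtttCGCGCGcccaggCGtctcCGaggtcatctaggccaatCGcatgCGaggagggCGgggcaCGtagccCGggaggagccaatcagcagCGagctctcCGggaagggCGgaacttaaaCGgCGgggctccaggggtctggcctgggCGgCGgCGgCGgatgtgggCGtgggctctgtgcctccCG
The Dnmt3a site holds 12 CG, the printed bases of the Dnmt1 promoter 7 and those of the Uhrf1 promoter 30.

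Tet1, Dnmt1, Dnmt3a, Dnmt3b and Uhrf1 each had at least 1 combined region of GATA4 and at least 1 of GATA6, while Tet2, Tet3 and Dnmt3l had none of either. That is 5 of 8 genes for each factor, beside 48.2% of all protein-coding genes for GATA4 and 38.3% for GATA6. The 8 loci were 113.389 to 200.81 kb long, beside a median of 104.245 kb over protein-coding genes, so these shares are not matched for length. Only Dnmt1 and Uhrf1 had a TSS of their own covered by a GATA4 combined region (2 of 8, beside 17.9% of protein-coding genes), and for GATA6 the count was 0 of 8 (beside 12.6%). Many of the sites thus lay at other genes of the same neighbourhood. For 6 of the 12 GATA4 regions and 5 of the 8 GATA6 regions the midpoint was within 1 kb of a TSS of another gene and of no member. Another 4 GATA4 and 3 GATA6 regions were within 1 kb of no TSS. Counted by the nearest TSS, 2 GATA4 regions and 0 GATA6 regions belonged to a member, a rule chosen after seeing the data. No test was made of these counts over 8 genes, and nothing particular to the 8 is read from them.

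**Figure D1:**
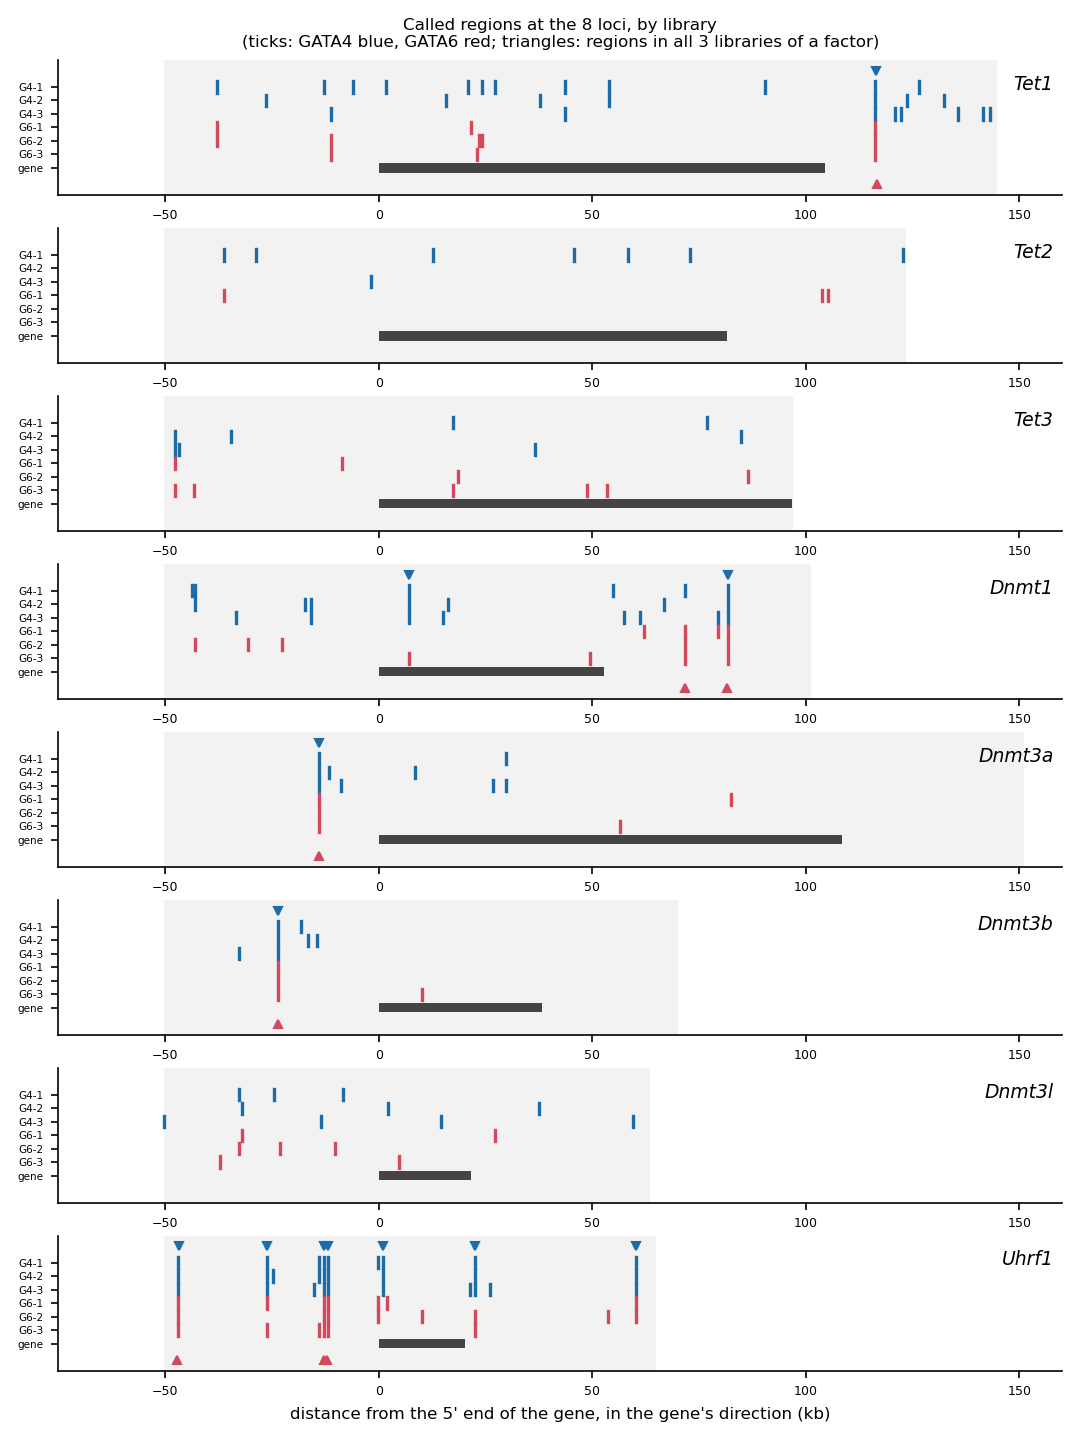
Called regions at the 8 loci, 1 panel per gene, by distance from the 5′ end of the gene in its own direction (kb). Each tick marks a library that holds a region (blue GATA4, red GATA6, replicates 1 to 3), at the midpoint of the regions merged over the 6 libraries. Called regions of 1 library that merge share a tick. Triangles mark regions in all 3 libraries of a factor, the dark bar is the gene body and grey is the locus: Uhrf1 carries 7 GATA4 and 3 GATA6 triangles, Tet2, Tet3 and Dnmt3l none.

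Tet1 (ENSMUSG00000047146.17, chr10:62804570-62908996, minus strand) encodes a TET dioxygenase with a CXXC domain that binds CG-rich DNA. Its locus of 194.458 kb held 12, 9 and 8 regions in GATA4 replicates 1, 2 and 3 and 3, 6 and 3 in GATA6 replicates 1, 2 and 3. All GATA4 libraries were above all GATA6 libraries, with means of 9.67 ± 2.08 and 4 ± 1.73 (SD, n = 3 each; difference 5.67, two-sided exact permutation p = 0.1, the smallest that 3 against 3 libraries can give). Only 1 site was in all libraries, chr10:62792045-62793094, which covers a TSS of Ccar1, a cell cycle and apoptosis regulator, and lies 11.475 kb beyond the 3′ end of Tet1. It reached maximum signals of 10, 5 and 9 in the GATA4 libraries and 7, 5 and 12 in the GATA6 libraries (chr10:62792082-62792712), with mean within-list percentiles of total signal of 94.1 ± 4.58 and 94.9 ± 2.62 (SD, n = 3). It belonged to the Tet1 locus through a short internal transcript of Tet1, since it was 116.426 kb from the 5′ end of the gene. No single TSS of Tet1 was covered by more than 1 library of a factor. Regions of GATA4 replicates 1 and 3 merged into chr10:62865118-62865633, around the TSS at position 62865304 inside the gene body, which the region of 1 of these libraries covered.

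Tet2 (ENSMUSG00000040943.12, chr3:133463679-133545139, minus strand) encodes a TET enzyme without a CXXC domain of its own. Its locus contains no other protein-coding TSS and held 7, 0 and 1 regions in the GATA4 libraries and 3, 0 and 0 in the GATA6 libraries. GATA4 replicate 1 alone contributed 7 of the 8 GATA4 regions, and 9 of the 10 merged regions were in 1 library. The means, 2.67 ± 3.79 and 1 ± 1.73 (SD, n = 3), differed by less than their spread (difference 1.67, exact permutation p = 0.7), and without GATA4 replicate 1 the difference was -0.5. No library covered a TSS of Tet2.

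Tet3 (ENSMUSG00000034832.15, chr6:83362373-83459084, minus strand) encodes the TET enzyme known for oxidising the paternal genome after fertilisation. The GATA4 libraries held 2, 3 and 3 regions in its locus and the GATA6 libraries 2, 2 and 5. The groups overlapped, with means of 2.67 ± 0.577 and 3 ± 1.73 (SD, n = 3; difference -0.333, exact permutation p = 1), and without GATA6 replicate 3 the difference was 0.667. Of 13 merged regions 11 were in 1 library, and 1 GATA4 and 1 GATA6 library covered a TSS of Tet3. The site found most often was in 4 libraries, at chr6:83506529-83507098, named here after its values were seen, and is a promoter of Dguok, which encodes mitochondrial deoxyguanosine kinase.

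Dnmt1 (ENSMUSG00000004099.16, chr9:20907209-20959888, minus strand), the maintenance methyltransferase, held 6, 7 and 8 regions in the GATA4 libraries and 4, 5 and 4 in the GATA6 libraries. The groups did not overlap, with means of 7 ± 1 and 4.33 ± 0.577 (SD, n = 3; difference 2.67, exact permutation p = 0.1). A GATA4 combined region, chr9:20952409-20953247, covered the TSSs at 20952605, 20952623, 20952845 and 20952979, among them starts of protein-coding transcripts. The single regions of 2 of the 3 libraries covered 20952605 and 20952623, and those of all 3 covered 20952845 and 20952979. The combined region had maximum signals of 12, 7 and 6 and within-list percentiles of 96.9, 65.5 and 87.2 in replicates 1, 2 and 3 (mean 83.2 ± 16.1, SD, n = 3), so the replicates ranked it unequally. Of the GATA6 libraries, replicate 3 held a region there, with a maximum of 6 and at the 95.8 percentile of its list, and replicates 1 and 2 held none. The TSS at the 5′ end of the gene, 20959888, was covered by 0 libraries of either factor. The RefSeq promoter at that start, chr9:20959839-20960138, was the one promoter with a GATA motif among the 15 RefSeq promoters of the 8 genes (1 of 15, beside 29.8% of 32851 promoters, 250 bases before to 50 after the start).

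The strongest site of the Dnmt1 locus by rank lay 28.523 kb beyond the 3′ end, in a coding exon of Angptl6, a secreted angiopoietin-like protein. It belonged to the locus through an internal start of Dnmt1, since its GATA4 region was 81.779 kb from the 5′ end of the gene. Its near edge was 1042 bp from a TSS of Angptl6 for GATA4 and 997 bp for GATA6. There the GATA4 libraries reached maximum signals of 12, 9 and 15 (chr9:20877532-20878685) and the GATA6 libraries 9, 7 and 7 (chr9:20877727-20878730). Its within-list percentiles lay close together, with means of 98.2 ± 0.874 and 99.0 ± 0.155 (SD, n = 3), which put it at rank 601 of 8282 and rank 225 of 5170. It held no GATA motif and had a CG observed/expected ratio of 0.80 over the GATA4 region. A GATA6 combined region at the promoter of Ppan, a ribosome biogenesis factor, chr9:20887890-20888305, had maxima of 6, 7 and 10 and percentiles of 49.6, 41.4 and 94.0 (mean 61.7 ± 28.3). It was the one combined GATA6 region of the 8 loci outside the GATA4 combined list, and GATA4 replicate 1 alone had a region there, with a maximum of 4. It too belonged to the locus through internal starts, 71.79 kb from the 5′ end. With the 5′ end as the only TSS, Dnmt1 had no GATA6 combined region.

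Dnmt3a (ENSMUSG00000020661.15, chr12:3806007-3914443, plus strand), a de novo methyltransferase, held 2, 3 and 4 regions in the GATA4 libraries and 2, 1 and 2 in the GATA6 libraries. The groups shared the value 2, and the means of 3 ± 1 and 1.67 ± 0.577 (SD, n = 3; difference 1.33) gave an exact permutation p of 0.3. The combined region of both factors lay in intergenic DNA 14.073 kb upstream of the first TSS, at chr12:3791718-3792150 for GATA4 and chr12:3791650-3792159 for GATA6, and the nearest TSS was that of Dtnb, a dystrobrevin, 12170 bp away. In the GATA4 libraries its maximum signals were 6, 10 and 15 and its percentiles 79.2, 89.3 and 94.1 (mean 87.6 ± 7.60). In the GATA6 libraries its maxima were 7, 7 and 7 and its percentiles 81.0, 85.1 and 62.7 (mean 76.3 ± 11.9). The site thus ranked near the median of the whole GATA4 list, 85.0, and below that of the GATA6 list, 83.5. Of the GATA6 list, 63.4% was at or above it. The site held no GATA motif, and its CG observed/expected ratio of 0.804 was reached by 1.0% of GATA4 combined regions away from a promoter. The promoters of Dnmt3a were in none of the 6 lists.

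Dnmt3b (ENSMUSG00000027478.15, chr2:153649450-153687730, plus strand), the other de novo methyltransferase, held 2, 3 and 2 regions in the GATA4 libraries and 1, 1 and 2 in the GATA6 libraries. The means were 2.33 and 1.33, each ± 0.577 (SD, n = 3; difference 1, exact permutation p = 0.3), and the groups overlapped. The site in all 6 libraries lay 23.504 kb upstream of the first TSS, in an intron of Commd7, at chr2:153625457-153626434 for GATA4 and chr2:153625566-153626294 for GATA6, 6297 bp from the TSS of Commd7. Its GATA4 maxima were 18, 15 and 14 and its percentiles 99.2, 99.1 and 99.4 (mean 99.2 ± 0.150), the highest mean of the 12 regions and rank 287 of 8282 (3.47% of the list at or above it). Its GATA6 maxima were 4, 9 and 7 and its percentiles 80.9, 99.2 and 94.3 (mean 91.5 ± 9.47). The GATA4 region held 9 GATA motifs, 3 of AGATAA and 2 each of the other 3 forms, a count reached by 1.29% of the list, and the GATA6 region held 8 (2.22%). Its CG observed/expected ratio was 0.0696, with 4 CG over 978 bp, so the strongest site of the de novo pair was rich in motifs and nearly free of CG, as the sequence above shows. No library covered a TSS of Dnmt3b or came within 1 kb of one. Dnmt3c, a rodent paralog that shares the locus, had no combined region within its own locus.

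Dnmt3l (ENSMUSG00000000730.13, chr10:78041947-78063622, plus strand) held 3, 3 and 4 regions in the GATA4 libraries and 2, 3 and 2 in the GATA6 libraries. The difference of 1 between means of 3.33 and 2.33 (each ± 0.577, SD, n = 3) gave an exact permutation p of 0.3, and the groups shared the value 3. Of the 15 merged regions 13 were in 1 library and the other 2 were in 2 libraries, and no library came within 1 kb of a TSS of Dnmt3l.

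Uhrf1 (ENSMUSG00000001228.14, chr17:56303321-56323486, plus strand), whose protein binds hemimethylated CG, had the densest locus of the 8. It held 10, 10 and 10 regions in the GATA4 libraries and 7, 8 and 7 in the GATA6 libraries, with means of 10 ± 0 and 7.33 ± 0.577 (SD, n = 3; difference 2.67, exact permutation p = 0.1, no overlap). Its 7.56 regions per 100 kb and library compare with a median of 2.13 over protein-coding genes, and 0.939% of these genes had 7 or more GATA4 combined regions (6.39% had 3 or more of GATA6). The locus also contains TSSs of Arrdc5, Fem1a, Kdm4b, Plin3 and Ticam1, and 6 of its 7 GATA4 combined regions lay at these genes.

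The remaining GATA4 region covered starts of Uhrf1 itself, at chr17:56303943-56304535, with the TSSs at 56304313, 56304348 and 56304407, which the single regions of 2, 1 and 1 of the 3 libraries covered. Its maxima were 6, 7 and 6 and its percentiles 51.0, 77.4 and 75.9 in replicates 1, 2 and 3 (mean 68.1 ± 14.8, SD, n = 3), the lowest mean of the 12. It was in 0 GATA6 libraries, the one region of the 12 without any, and 9.03% of the whole GATA4 combined list is of that kind. It held 57 CG, an observed/expected ratio of 0.899, and no GATA motif. GATA6 replicates 1 and 2 held another region at the first starts of the gene, chr17:56302978-56303456, which covers the TSSs at 56303321 and 56303400, with maxima of 6 and 5, and GATA4 replicate 1 shared it with a maximum of 6. Regions lay within 1 kb of a Uhrf1 start in 3 GATA4 and 2 GATA6 libraries.

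Upstream of Uhrf1, a pair of regions lay at Plin3, a lipid droplet coat protein, 12.830 and 11.858 kb from the 5′ end, and both were in all 6 libraries. At the nearer one, chr17:56291019-56291907, GATA4 maxima were 21, 17 and 13 (mean percentile 95.6 ± 3.50) and GATA6 maxima 6, 4 and 7 (chr17:56290940-56291629, 71.6 ± 32.1). At the other, chr17:56290296-56290686, they were 12, 8 and 8 (75.5 ± 15.9) and 7, 10 and 15 (chr17:56290310-56290702, 67.3 ± 26.5). The GATA6 replicates ranked both sites very unequally, so their place in the GATA6 list is poorly fixed. The promoter of Fem1a, a ubiquitin ligase adaptor, was marked by both combined lists, with GATA4 maxima of 5, 6 and 6 (chr17:56256314-56256829, 82.5 ± 3.26) and GATA6 maxima of 7, 9 and 6 (chr17:56255764-56256554, 73.9 ± 30.0).

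The other 3 GATA4 regions of the Uhrf1 locus were each in 2 GATA6 libraries. One covered the promoter of Ticam1, a Toll-like receptor adaptor, chr17:56276685-56277731, with maxima of 9, 9 and 9 (90.4 ± 1.62) and 3 GATA motifs. The other pair lay at Kdm4b, a histone H3K9 demethylase. Its promoter region, chr17:56325587-56326127, 2.100 kb beyond the 3′ end of Uhrf1, had maxima of 9, 15 and 12 (96.4 ± 1.80), and its intron region, chr17:56363043-56363921, 39.556 kb beyond it, had maxima of 9, 9 and 7 (92.3 ± 4.35), 3 motifs and a CG ratio of 0.126.

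**Figure D2:**
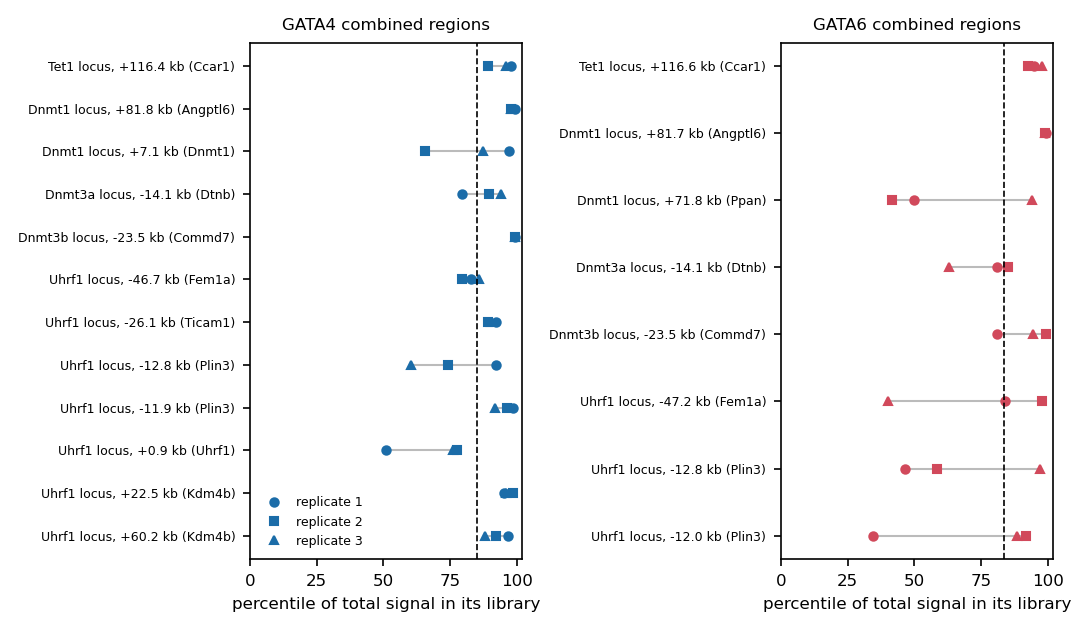
Within-list percentile of total signal of each combined region at the 8 loci (x axis, percent), GATA4 left and GATA6 right, with 1 symbol per replicate, a grey line over their range and a dashed line at the median of the whole combined list (85.0 and 83.5). Rows give the locus, the distance from the 5′ end of the gene and the gene at the site: the Angptl6 exon and the GATA4 region at Commd7 stay above 97 in each replicate, while GATA6 at Plin3, Fem1a and Ppan spreads widely.

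Across the members, the median over regions of the mean percentile was 91.4 for the 12 GATA4 regions, beside 85.0 for the whole list. For the 8 GATA6 regions it was 75.1, beside 83.5, but it was 91.3 by maximum signal and 90.0 by signal per bp, so the order of GATA6 against its list depends on the measure. Of the 12 GATA4 regions 7 (58.3%) overlapped the GATA6 combined list, beside 45.2% of all GATA4 combined regions, and 7 of the 8 GATA6 regions (87.5%) overlapped that of GATA4, beside 72.3%. The sites common to both factors were those at Ccar1, the Angptl6 exon, upstream of Dnmt3a, upstream of Dnmt3b, Fem1a and both of Plin3.

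Summed over the 8 loci (1214.23 kb, 0.0446% of the genome), the GATA4 libraries held 44, 38 and 40 regions and the GATA6 libraries 24, 26 and 25. The groups did not overlap, with means of 40.7 ± 3.06 and 25 ± 1 (SD, n = 3; difference 15.7), or 3.35 ± 0.252 and 2.06 ± 0.0824 regions per 100 kb. Over the genome the lists gave 1.77 ± 0.0545 and 1.63 ± 0.0741 per 100 kb. The GATA4 lists were also the longer ones, and when each list was shortened to its 42446 regions of highest total signal the difference at the loci was 12. By gene, 7 of 8 had the higher mean for GATA4, beside 55.4% of the 20940 protein-coding genes with a region in any library. Groups without overlap and with GATA4 higher were found at 3 of 8 genes (Tet1, Dnmt1 and Uhrf1, beside 5.62% of these genes), and with GATA6 higher at 0 of 8 (beside 1.56%). With lists of equal length 1 gene, Uhrf1, was left, a setting for which the share over all protein-coding genes was not computed. The combined lists did not show the difference at Tet1, with 1 region of each factor, or at Dnmt1, with 2 of each. At Uhrf1 they held 7 GATA4 and 3 GATA6 regions. The shares over all genes were not matched for locus length or number of regions. Over the 20940 genes, 1503 reached p = 0.1 in the exact permutation test, 0 could pass 0.05 with 3 against 3 libraries, and the smallest Benjamini-Hochberg adjusted p was 1.

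**Figure D3:**
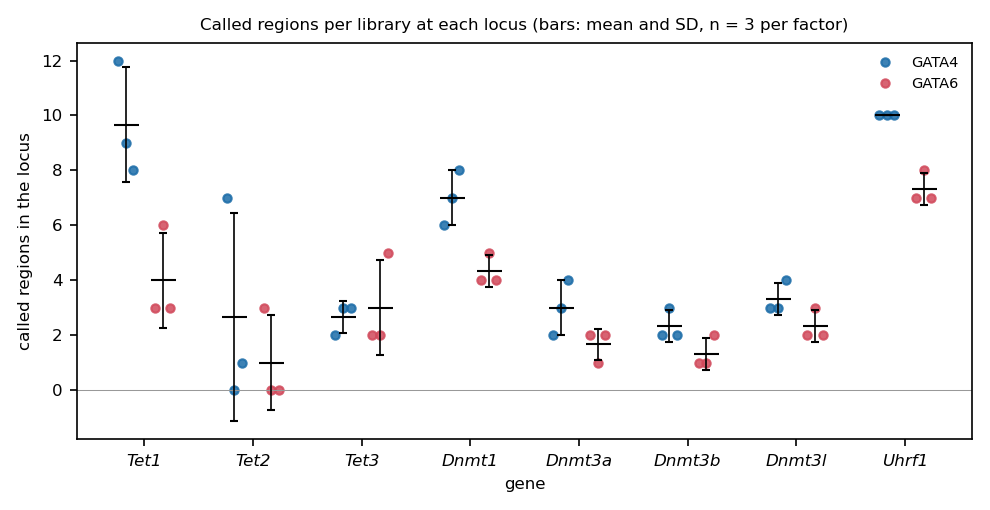
Number of called regions in each library at each locus (y axis), blue for GATA4 and red for GATA6, 1 point per library, with the mean and SD (n = 3) as bars. The groups do not overlap at Tet1, Dnmt1 and Uhrf1, and the GATA4 spread at Tet2 comes from a library with 7 regions beside libraries with 0 and 1.

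Most called regions at these loci were in a single library. The 6 lists merged into 113 regions there, of which 84 (74.3%) were in 1 library, beside 83.2% of 201994 merged regions in the series, and 7 (6.19%) were in all 6, beside 1.88%. At Uhrf1 7 of 16 merged regions were in 1 library, against 20 of 26 at Tet1 and 13 of 19 at Dnmt1. By factor, 63 of the 113 were in GATA4 libraries only, 26 in GATA6 libraries only and 24 in both. The 84 regions in 1 library belong to 1 factor by construction. The same split over the series was not computed, so nothing is read from it. Some TSS of the gene, not always the same one, was covered in 3 GATA4 libraries for Dnmt1 and Uhrf1 and in 1 and 2 GATA6 libraries. Tet1 had 2 GATA4 libraries and 1 GATA6 library, Tet3 had 1 of each, and Tet2, Dnmt3a, Dnmt3b and Dnmt3l had 0 of 6. These counts per library were not computed over all protein-coding genes.

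The motif and CG content of the sites was described without a test, and the regions differed in width. A GATA motif lay within 100 bp of the midpoint of 3 of 12 GATA4 regions (25%, beside 39.9% of the list) and 2 of 8 GATA6 regions (25%, beside 33.1%). Promoters made up 66.7% of the GATA4 regions at the loci, beside 48.2% of the list, and 62.5% of the GATA6 regions, beside 54.0%, and in the GATA4 list promoter regions hold a motif less often (18.5%) than others (59.7%). Away from promoters, the GATA4 regions upstream of Dnmt3b and in the Kdm4b intron had 9 and 3 motifs with CG ratios of 0.0696 and 0.126. Those upstream of Dnmt3a and in the Angptl6 exon had 0 motifs and ratios of 0.804 and 0.80. The near edge of the Angptl6 region was 1042 bp from a TSS of Angptl6, beside a promoter limit of 1 kb for midpoints. A site without a motif says only that these letters are not in the window. The members' own RefSeq promoters held 2 to 57 CG, beside a median of 7 over all promoters.

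**Figure D4:**
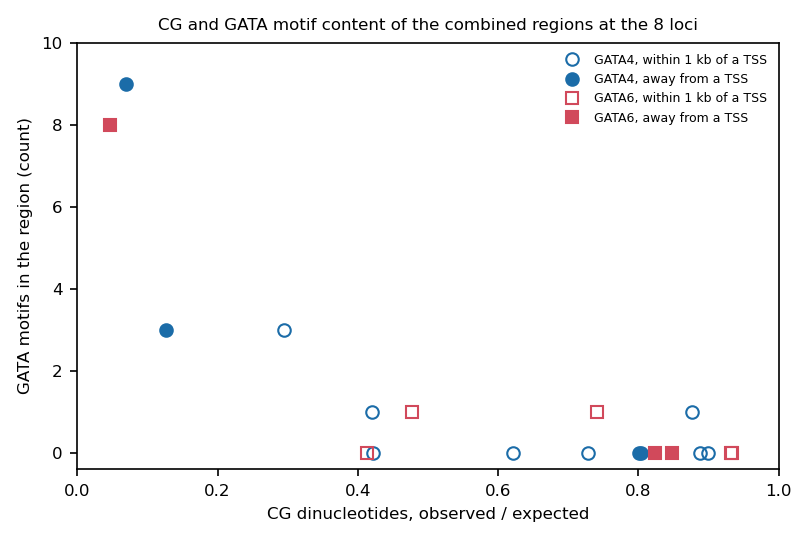
CG observed/expected ratio (x axis) against the number of GATA motifs (y axis) of the combined regions at the 8 loci, circles for GATA4 and squares for GATA6, open within 1 kb of a TSS and filled away from one. The Dnmt3b upstream site stands at the upper left with 9 and 8 motifs, and the Dnmt3a upstream and Angptl6 sites overlap near a ratio of 0.8 with 0 motifs.

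The wider DNA methylation pathway was read through a list of 44 other genes. In their loci, 27 (61.4%) had a GATA4 combined region and 18 (40.9%) a GATA6 combined region, beside 48.2% and 38.3% of protein-coding genes, and a TSS of their own was covered in 11 and 7, beside 17.9% and 12.6%. Among the genes of removal and repair of oxidised or damaged bases, 6 of 9 had a GATA4 and 5 of 9 a GATA6 region. Of the readers of methylated DNA 5 of 8 and 4 of 8 had one, of the TET partners 2 of 6 and 1 of 6, and of the maintenance factors and DNMT partners 11 of 16 and 5 of 16. Of the methyl donor genes 2 of 3 had a GATA4 region and 2 of 3 a GATA6 region, not the same genes for each factor. Of the genes for alpha-ketoglutarate, the TET cosubstrate, 1 of 2 had a region of each factor.

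At 6 of the 44 genes and at 0 of the 8 members both factors had a combined region within 1 kb of a TSS of the gene, beside 10.5% of protein-coding genes, and the counts were not tested against each other. They were Mbd4, a glycosylase that removes thymine from mismatches at CG sites, with mean percentiles of 98.6 for GATA4 and 99.1 for GATA6; Mbd3, a subunit of the NuRD complex, with 98.1 and 98.8; Xrcc1, a scaffold of base excision repair, with 98.2 and 93.1; and Idh1, an isocitrate dehydrogenase, with 98.1 and 86.3. Parp1, which senses DNA breaks, had 90.3 and 91.3, and Gadd45a, a stress-induced gene linked to demethylation, 78.8 and 79.3.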

How the data were processed

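GATA4 and GATA6 CUT&RUN was carried out in 3F2 XEN cells, with 3 libraries per factor grouped by the sample titles. The submitters' processing notes name Bowtie2 2.3.4.1, SEACR 1.3, Picard, SAMtools and bedtools and the build mm10. Per the study's methods the authors called regions in each library in stringent mode with a numeric threshold and no normalisation, and kept for the combined lists the regions common to all replicates. As described, the call used no IgG control. The deposited lists give per region a total signal and a maximum signal, the fragment pileup summed over its bases and at its highest point, neither scaled for depth. Signal was therefore turned into a percentile within its own list and never compared between lists. With such a threshold the length of a list is set more by the caller than by the number of bound sites. Depth after filtering is unknown, so precision is given as the SD over 3 libraries. Where nothing states separate cultures, p-values measure the spread between these samples only, which may be technical.

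Loci, TSSs of all annotated transcripts and features came from GENCODE M21 and sequence from GRCm38.p6, whose chromosomes contained every region. Overlap meant at least 1 bp. A promoter region has its midpoint within 1 kb of a TSS. The combined lists were rebuilt from the libraries in 8282 of 8282 and 5170 of 5170 cases. The number of regions per locus was compared for each protein-coding gene by an exact permutation test, two-sided, and adjusted over all genes tested. The 8 genes, the pathway list of 44 genes and the tests were chosen with earlier results of these data known. All 8 genes and every combined region in a locus are named, with other regions named where at least 2 libraries of a factor cover a member's TSS, and pathway genes where both combined lists lie within 1 kb of a TSS. GATA4 and GATA6 libraries of one number did not deviate together, with correlations of 0.00102 to 0.00148 over genes, so the numbers were not used as pairs. The code for overlaps, loci and motifs was tested on simulated data. Alternatives covered windows, TSS choice, stricter and equal-length lists, replicates left out, signal measures and motif windows. Python 3.11.15, numpy 2.4.6, scipy 1.17.1, pysam 0.24.0 and matplotlib 3.10.9 were used.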

Additional observations from a re-analysis of the deposited data

How the results depend on the processing

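Of 177 recomputed values 149 were counted as kept, 24 as moved and 4 as turned in direction. For the differences of single genes only a change of sign was looked for, so some kept values were far from the reported ones. With the top 50% of each list, the Tet1 difference fell from 5.67 to 2 and that of Uhrf1 rose from 2.67 to 4.33, and both counted as kept. Regions required in at least 2 of 3 libraries gave 19 GATA4 and 14 GATA6 regions at the loci, since fewer libraries had to hold them. The 50% of each list with the highest signal gave 4 GATA6 regions. With 1 TSS per gene, which drops the windows around internal starts, GATA6 had 5 regions at 3 genes (Dnmt3a, Dnmt3b and Uhrf1). Without a replicate, the GATA4 regions ranged from 14 to 15 and the GATA6 regions from 9 to 11, at 5 to 6 genes for either factor. The alternatives chosen after seeing the data removed loci or regions by construction: without the Uhrf1 locus 5 GATA4 and 5 GATA6 regions were left, and counting only regions whose nearest TSS is a member's left 2 GATA4 regions at 2 genes and 0 GATA6 regions at 0 genes.

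The summed difference between factors of 15.7 regions per library was 12 with lists of equal length, 7 with the top 50% of each list, 10.7 with a window of 25 kb, 19 with 100 kb and 10 without the Tet1 locus, and 14 to 17 without a replicate. The 3 genes without overlap became 1 with equal-length lists (Uhrf1), 1 with 25 kb (Uhrf1) and 1 with 100 kb (Tet1), and were 3 to 4 without a replicate. The share over all protein-coding genes was not computed for these settings, so these counts stand without a background. The exact p per gene was 0.1 to 1 over all alternatives. Direction turned at Tet2 without GATA4 replicate 1 (-0.5), at Tet3 without GATA6 replicate 3 (0.667, and -0.833 without replicate 1 or 2) and, with the top 50% of each list, at Dnmt3a (-0.667) and Dnmt3l (-0.667), and the cause was not tested. With the replicate block the summed difference was again 15.7, and the lowest p per gene, 0.25, is the smallest that 3 pairs allow.

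A motif anywhere in the region was found in 5 GATA4 regions, since the window is larger. The GATA6 median percentile was 91.3 by maximum signal, 90.0 by signal per bp and 71.8 to 86.6 without a replicate. The cause was not tested. With a median maximum signal of 4 and unknown depth, a region missing from a library is not shown to be unbound.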
